A study of Xenopus laevis with 6 samples.

Results

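Nodal ligands of the TGF-β family pattern the left-right axis of vertebrate embryos. A Nodal signal is switched on in the left lateral plate mesoderm, where it maintains its own transcription and induces its feedback inhibitor Lefty. The signal passes through activin type I and type II receptors to Smad2, which enters the nucleus and binds target genes together with the forkhead protein FoxH1. In Xenopus laevis the tailbud stage examined here lies within the window of left-sided expression. The genes of this cascade were examined in whole stage 23 embryos with and without knockdown of Neil2, a DNA glycosylase of base excision repair.

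Members were all features of the deposited count tables whose name, without the homeolog suffix, was nodal1, nodal, lefty, dand5, gdf3, acvr2b, acvr1b, foxh1 or smad2. The frog is allotetraploid, and the suffixes .L and .S mark the copies of a gene on the long and short chromosomes of each homeologous pair. These 9 symbols gave 17 features of 44958 in all, since gdf3 was present only as gdf3.S. RefSeq lists nodal1 also as Xnr-1, nodal as xnr4, lefty as antivin, dand5 as coco, gdf3 as derriere, acvr1b as alk4 and foxh1 as fast1. The members were chosen by pathway with the strong difference of nodal1.L between neil2 MO and control MO already known, so the neil2 MO against control MO values of members are a description and carry no p-value.

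The neil2 MO group comprised 3 libraries of X. laevis embryos injected with 40 ng of neil2 Morpholino (MO), and the control MO group comprised 3 libraries of embryos injected with the same dose of control MO. Both MOs were injected at the 1-cell stage into the animal hemisphere, and each library was made from polyadenylated RNA of a pool of 6 embryos harvested at stage 23. A pool of whole embryos holds left and right sides together, so the values say nothing of the side of expression, and fewer expressing cells and less RNA per cell cannot be told apart. The labels do not state that the pools came from separate clutches, and p-values measure the spread between these pools only.

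The sequences of both MOs are shown because they are the only difference between the groups that the labels state. An MO is a synthetic antisense oligonucleotide, and capitals mark bases 23 to 25 of the neil2 MO, which are complementary to an ATG start codon.
neil2 MO: gtctgactgtgggaccttccggCAT
control MO: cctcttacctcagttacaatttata

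The libraries held 18173652 to 24034094 counted reads in neil2 MO pools and 11534725 to 20655392 in control MO pools. Levels are given as CPM, the count of a feature scaled to the total counted reads of its library. The detection floor of 3 counts corresponded to 0.125 to 0.26 CPM, depending on the library. The target feature neil2.L had 5, 4 and 15 counts in neil2 MO pools and 3, 4 and 3 counts in control MO pools, too few to check the labels, and a MO that blocks translation need not lower its transcript. The first principal component held 38.8% of the variance and set both pools of replicate 3 (40.6 in neil2 MO and 49.1 in control MO) apart from the other pools (-25.2 and -24.5 in neil2 MO, -14.2 and -25.8 in control MO). Markers of muscle (actc1, myod1), neural tissue (sox3, ncam1), epidermis (tp63) and endoderm (sox17a, foxa1) were counted in each library. Of the 19 marker features tested, DESeq2 called 0 raised and 0 lowered, as did edgeR without a replicate term. At an unadjusted p below 0.05 (DESeq2), 0 were higher and 3 lower. edgeR with replicate number as a block lowered 1 marker feature. Counts at an unadjusted p, here and below, are from DESeq2. They have no share of all features beside them, so they cannot be set against a background. Of the tested markers, actc1.S, des.1.L, des.1.S, sox2.S, sox3.L and foxa1.L had lower values without overlap, and none had higher values without overlap. The lower ones were a larger share than among all features tested, of which 10.3% lay below and 6.13% above. The other tested markers overlapped, among them actc1.L and both copies of ncam1 and of myod1. The log2 fold changes of myod1 were 0.04 ± 0.24 (myod1.L) and 0.16 ± 0.22 (myod1.S). des.1.L, a muscle filament gene, had 513 ± 58.7 CPM in neil2 MO and 751 ± 37.6 CPM in control MO (SD, n = 3 each), a log2 fold change of -0.50 ± 0.15 (adjusted p = 0.0588, or 0.000209 with the block, DESeq2) that missed the fold limit of the call. des.1.S (-0.31 ± 0.15), the neural gene sox2.S (-0.47 ± 0.20) and the endoderm gene foxa1.L (-0.27 ± 0.18) lay below control MO as well. The part of tissue makeup in the later values was not tested.

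The first question was how the level of each Nodal cascade gene compared between Neil2 morphants and controls. Raised and lowered here mean an adjusted p below 0.1 (DESeq2, Benjamini-Hochberg over all features) together with a log2 fold change beyond 0.5 in either direction. By this rule 1.12% of all 23457 features tested were lowered and 1.17% raised. Of the 17 member features 14 had enough reads to be tested, of which 1 was lowered, nodal1.L, and 0 were raised. The remaining 13 were not called. edgeR without a replicate term gave the same counts. Because nodal1.L led to the choice of the members, nothing is read from these counts. The median log2 fold change was -0.11 over the tested members and 0.01 over all features tested.

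The ligand gene nodal1 was the member with the largest difference. The feature nodal1.L had 31, 19 and 36 counts in neil2 MO pools and 141, 94 and 58 counts in control MO pools. This amounted to 1.68, 1.05 and 1.5 CPM in neil2 MO and to 6.83, 6 and 5.03 CPM in control MO. Each neil2 MO pool lay below each control MO pool, with a wide gap between the groups. The mean was 1.41 ± 0.329 CPM in neil2 MO and 5.95 ± 0.9 CPM in control MO (SD, n = 3 each), and the log2 fold change was -2.03 ± 0.35 (SE), or 4.09-fold lower. Set against the control MO pool of the same replicate number, the neil2 MO pools were 4.05-, 5.74- and 3.36-fold lower.

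The second copy, nodal1.S, showed the same direction at fewer reads. It had 11, 7 and 10 counts (0.598, 0.385 and 0.416 CPM) in neil2 MO pools and 26, 21 and 16 counts (1.26, 1.34 and 1.39 CPM) in control MO pools. The groups did not overlap here either. The log2 fold change of nodal1.S was -1.46 ± 0.60, and it was not called. Summed over both copies, nodal1 had 2.28, 1.43 and 1.91 CPM in neil2 MO and 8.09, 7.35 and 6.42 CPM in control MO, with a log2 fold change of -1.91 ± 0.31.

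The share of nodal1 reads from the L copy was compared across pools. It was 73.8%, 73.1% and 78.3% in neil2 MO pools and 84.4%, 81.7% and 78.4% in control MO pools. Each neil2 MO share lay below each control MO share, by the narrowest margin between the replicate 3 pools. Such a downward shift without overlap was seen in 8.34% of the 7252 homeolog pairs compared. The exact Clopper-Pearson 95% intervals of the neil2 MO shares, such as 52.2% to 88.4% in replicate 2, took in each control MO share. The interval of control MO replicate 1 (78% to 89.6%) left out the shares of neil2 MO replicates 1 and 2. That of control MO replicate 2 (73.5% to 88.3%) left out the share of neil2 MO replicate 2. These intervals cover counting error only, since the libraries carried no molecular identifiers.

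The other ligand features held few reads. The feature nodal.L, whose RefSeq synonym is xnr4, had 1, 1 and 0 counts in neil2 MO and 0 in each control MO pool. nodal.S had 0, 1 and 0 counts in neil2 MO and 0 in each control MO pool, so neither can be compared. The ligand gene gdf3, known in Xenopus for roles in mesoderm and left-right patterning, had 2.88, 5.5 and 1.33 CPM in neil2 MO pools and 2.86, 4.79 and 2.25 CPM in control MO pools as gdf3.S. Its groups overlapped, and its log2 fold change was 0.03 ± 0.49, which became -0.64 without neil2 MO replicate 2 and 0.42 without control MO replicate 2.

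**Figure D1:**
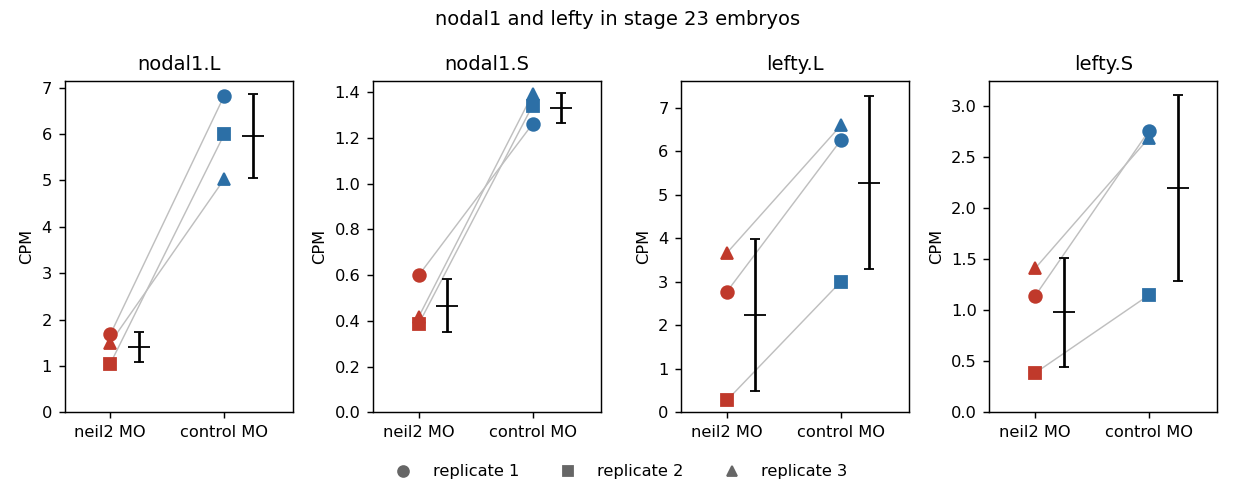
Levels of nodal1 and lefty homeologs in CPM (vertical axes, each with its own range) in neil2 MO (red) and control MO (blue) pools. Markers show the replicate number, grey lines join pools of the same number, and black bars are the mean and SD of 3 pools. Both nodal1 copies had separate groups, whereas those of lefty overlapped through replicate 2.

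Lefty, the secreted feedback inhibitor of Nodal, also had lower means in neil2 MO, with overlapping groups. The feature lefty.L had 51, 5 and 88 counts (2.77, 0.275 and 3.66 CPM) in neil2 MO pools and 129, 47 and 76 counts (6.25, 3 and 6.59 CPM) in control MO pools. Replicate 2 was the lowest pool of each group, and the neil2 MO pool with 5 counts had an exact Poisson 95% interval of 0.0893 to 0.642 CPM. The log2 fold change of lefty.L was -1.19 ± 0.57, and it was not called. Leaving out neil2 MO replicate 2 gave -0.67. In the plot of nodal1 and lefty levels the lines between same-numbered pools all run in the same direction, with neil2 MO pools 2.25-, 10.9- and 1.8-fold lower for lefty.L. Lower neil2 MO values in all 3 same-numbered pairs were also seen in 26.5% of all features tested. The members dand5.S, acvr2b.S, acvr1b.S and smad2.S had this pattern too. With replicate number as a block in the fit, the log2 fold change of lefty.L was -1.51 ± 0.41. lefty.L was then called lowered, beside 2.74% of all features in that fit, which raised 3.14%. In edgeR with the block 4 members were lowered, both copies of nodal1 and of lefty, beside 5.25% of all features.

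The feature lefty.S had 21, 7 and 34 counts (1.14, 0.385 and 1.41 CPM) in neil2 MO pools and 57, 18 and 31 counts (2.76, 1.15 and 2.69 CPM) in control MO pools. Again both replicate 2 pools were lowest. Its log2 fold change was -1.10 ± 0.55, and DESeq2 did not call it with or without the block. The L copy gave 70.8%, 41.7% and 72.1% of lefty reads in neil2 MO and 69.4%, 72.3% and 71% in control MO, where the value of 41.7% rested on 12 reads.

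The antagonist Dand5 binds Nodal in the left-right organizer of Xenopus and is lowered on the left by cilia-driven flow. The feature dand5.S had 1.03, 2.04 and 0.458 CPM in neil2 MO pools and 1.16, 2.36 and 0.954 CPM in control MO pools. The feature dand5.L had 0.163, 1.27 and 0.458 CPM in neil2 MO pools and 0.242, 1.02 and 0.78 CPM in control MO pools. For both copies replicate 2 was the highest pool of each group and the groups overlapped. The log2 fold changes were -0.30 ± 0.62 for dand5.S and -0.04 ± 0.85 for dand5.L. Leaving out neil2 MO replicate 2 gave -1 and -1.08, and leaving out control MO replicate 2 gave 0.22 and 0.42. Each of these fits drops only 1 pool of replicate 2, so they do not settle a direction. Against same-numbered pools, dand5.S was 1.13-, 1.16- and 2.08-fold lower in neil2 MO, while dand5.L was lower in 2 pairs and higher in 1. With the replicate block the log2 fold changes were -0.38 ± 0.54 for dand5.S and -0.24 ± 0.78 for dand5.L, with errors larger than the changes.

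The receptor genes were measured at far greater depth, which narrowed their errors. The type II receptor gene acvr2b had 22.4 to 24.4 CPM in neil2 MO and 19.2 to 24.9 CPM in control MO as acvr2b.L, and 55.8 to 67.2 CPM in neil2 MO and 63.2 to 73.9 CPM in control MO as acvr2b.S. Their log2 fold changes were 0.09 ± 0.19 and -0.14 ± 0.17. The type I receptor gene acvr1b had 22.9 to 27.5 CPM in neil2 MO and 22.6 to 26.9 CPM in control MO as acvr1b.L, with a log2 fold change of 0.06 ± 0.19. For acvr1b.S, the values of 12.8 to 15.2 CPM in neil2 MO lay below those of 15.5 to 15.7 CPM in control MO, and the log2 fold change was -0.10 ± 0.20. Over summed copies the log2 fold changes were -0.08 ± 0.16 for acvr2b and 0.00 ± 0.17 for acvr1b.

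Smad2, the intracellular transducer, had copies that lay on opposite sides of control. smad2.L had 22.6 to 23.6 CPM in neil2 MO and 20.6 to 21.8 CPM in control MO, and smad2.S had 15.5 to 17.6 CPM in neil2 MO and 17.9 to 19.6 CPM in control MO. Neither pair of ranges overlapped, but the log2 fold changes were small, at 0.17 ± 0.18 for smad2.L and -0.11 ± 0.19 for smad2.S. The L share of smad2 reads was 59.3%, 56.7% and 57.4% in neil2 MO and 51.2%, 54.8% and 53.2% in control MO. An upward shift without overlap was seen in 7.83% of the homeolog pairs. The summed smad2 level differed by 0.04 ± 0.16 on the log2 scale. For acvr2b the L share was likewise higher, at 26.6%, 28.6% and 28.8% in neil2 MO and 24.9%, 26.3% and 23.3% in control MO.

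FoxH1, the nuclear partner of Smad2, was counted as foxh1.L at 12.2, 17.1 and 20.6 CPM in neil2 MO pools and at 11.5, 17.5 and 23.4 CPM in control MO pools. These values differed more between replicate numbers than between the groups, whose log2 fold change was -0.01 ± 0.29. foxh1.S had at most 1 count in any library.

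**Figure D2:**
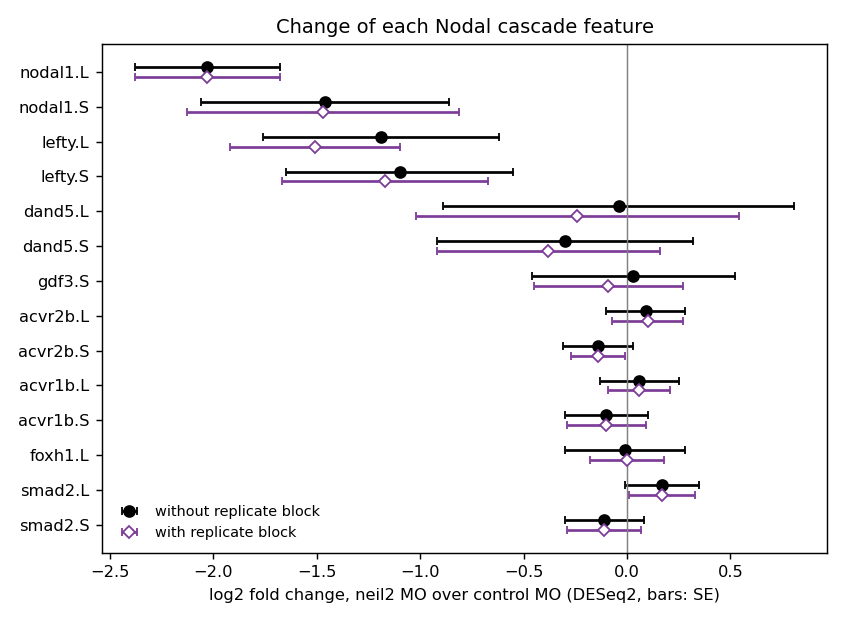
Log2 fold change of neil2 MO over control MO (horizontal axis) for the 14 tested Nodal cascade features, with bars for the SE. Black circles are the fit without and purple diamonds the fit with replicate number as a block. The nodal1 and lefty copies lie between -2.03 and -1.10 without the block, and the receptor and Smad features lie within 0.17 of zero.

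Without overlap between the groups, 4 tested members lay below control (nodal1.L, nodal1.S, acvr1b.S and smad2.S) and 1 lay above (smad2.L). Among all features tested, 10.3% lay below and 6.13% above.

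A second comparison did not use the contrast between the MOs. Libraries of the same replicate number deviated together from their group means, and a likelihood ratio test (DESeq2) asked which features differed between replicate numbers with the group kept in the model. This test called 3 of the 14 members, beside 17.1% of all features tested, a share near that background. The called members differed in pattern. lefty.L was lower in replicate 2 than in replicate 1 by a log2 difference of -1.72 ± 0.52 (adjusted p = 0.0079). For gdf3.S, replicate 3 was lower than replicate 2 by a log2 difference of -1.63 ± 0.45 (adjusted p = 0.0155). foxh1.L was higher in replicate 3 than in replicate 1 by 0.90 ± 0.22 on the log2 scale (adjusted p = 0.00411). In each case both pools of the replicate moved the same way.

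The replicate calls changed when 1 library was left out, which also leaves fewer libraries to test. foxh1.L was called in 3 of 6 such fits, lefty.L in 2 and gdf3.S in 1, and without neil2 MO replicate 3 neither lefty.L nor gdf3.S received an adjusted p. foxh1.L was lost without neil2 MO replicate 1 (adjusted p = 0.349), control MO replicate 1 (0.629) or control MO replicate 3 (0.178, all DESeq2). Of the fits that gave a value, lefty.L was called without control MO replicate 2 or 3 alone, and gdf3.S without control MO replicate 3 alone. nodal1.L was not called by replicate number (adjusted p = 0.863, DESeq2), nor was nodal1.S (0.99).

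**Figure D3:**
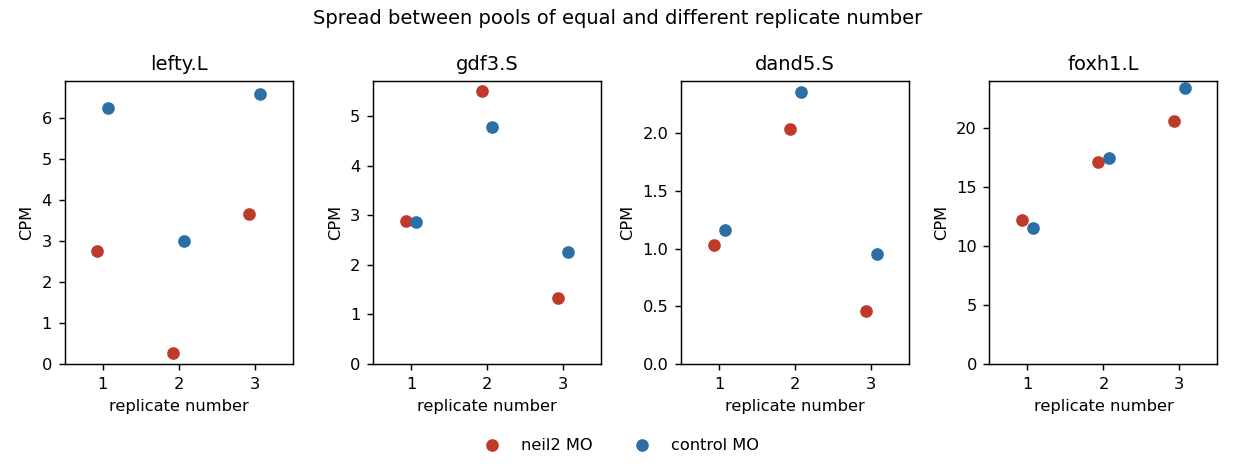
Levels in CPM (vertical axes, each with its own range) of lefty.L, gdf3.S, dand5.S and foxh1.L against replicate number, with neil2 MO pools in red and control MO pools in blue. For gdf3.S and dand5.S both replicate 2 pools are highest, for foxh1.L both replicate 3 pools, and for lefty.L both replicate 2 pools are the lowest of their group.

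The wider pathway was then examined through 7 lists of genes that are no members, with 166 features in all. Of the 127 tested, DESeq2 called 6 raised and 1 lowered, beside 1.17% and 1.12% of all features tested. The median log2 fold change over the lists was -0.01. Among the other ligands and their processing enzymes, 13 of 29 features had no counted read in any library, gdf1.S among them. Tandem nodal copies are near identical, and reads that mapped to several places were not counted, so a zero there does not show absence. Of the 8 features tested in this list 0 were raised and 0 lowered, in edgeR without the block too. At an unadjusted p below 0.05 (DESeq2) 2 were lower, with no share of all features beside this count. edgeR with the block lowered 2, inhbb.L and inhbb.S. The median log2 fold change of the ligand list was -0.16.

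The antagonist and co-receptor list had a median log2 fold change of 0.00 and the list of receptors and Smad regulators one of 0.04. Of 11 tested antagonists and co-receptors, and of 36 tested receptors and Smad regulators, 0 were raised and 0 lowered in DESeq2 and in edgeR without the block. With the block, DESeq2 lowered 1 antagonist feature, fst.L, and edgeR lowered 2, fst.L and fst.S. At an unadjusted p below 0.05, 1 was higher and 1 lower in the antagonist list and 0 in the receptor list. The EGF-CFC co-receptor tdgf1 was measurable as tdgf1.2, with log2 fold changes of 0.03 ± 0.35 for tdgf1.2.L and -0.37 ± 0.25 for tdgf1.2.S (adjusted p = 0.737, DESeq2). cer1, a secreted Nodal inhibitor, was too low to be tested. Smad3, the close relative of Smad2, had log2 fold changes of 0.07 ± 0.30 (smad3.L) and 0.13 ± 0.44 (smad3.S), and the shared partner smad4.1 had 0.03 ± 0.18 (smad4.1.L) and 0.06 ± 0.20 (smad4.1.S).

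Of 12 tested Nodal target features 1 was raised and 0 lowered, and edgeR gave the same counts. The target list includes sox17a, used above as an endoderm marker, so these counts do not single out the signal of the left lateral plate. The raised feature was vegt.L, a T-box gene of early mesoderm and endoderm, with 13.2 ± 1.84 CPM in neil2 MO and 5.29 ± 0.89 CPM in control MO (SD, n = 3 each, log2 fold change 1.37 ± 0.25, adjusted p = 1.3e-05, DESeq2). vegt.L was called in 6 of 6 fits that left out 1 library. vegt.S also lay above control MO without overlap, at 4.32 ± 0.879 CPM in neil2 MO and 2.94 ± 0.085 CPM in control MO. Its log2 fold change was 0.61 ± 0.33 (adjusted p = 0.579, DESeq2), and vegt.S was not called.

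The list of cilia and flow-sensing genes of the left-right organizer held 5 of the 6 raised features. Of its 22 tested features 5 were raised and 0 lowered, beside 1.17% and 1.12% of all features tested. The median log2 fold change of the cilia list was 0.27. rfx2.L, which encodes a transcription factor of ciliated cells, rose to 32.1 ± 3.07 CPM in neil2 MO, against 17.3 ± 1.32 CPM in control MO (log2 fold change 0.94 ± 0.19, adjusted p = 0.000178, DESeq2). tekt2.L, a gene for an axonemal filament protein, rose to 25.5 ± 6.7 CPM in neil2 MO, against 11.4 ± 2.05 CPM in control MO (1.21 ± 0.24, adjusted p = 0.000187, DESeq2). The other copy, tekt2.S, was not called and its groups overlapped, at 75.3 ± 18.9 CPM in neil2 MO and 65.4 ± 8.54 CPM in control MO. Its log2 fold change was 0.26 ± 0.22 (adjusted p = 0.861, DESeq2), and tekt2 was not called with homeologs summed. rfx2.L and tekt2.L were called in 6 of 6 fits that left out 1 library. nme7.L (0.70 ± 0.20), rfx2.S (0.63 ± 0.20) and dnah5.L (0.77 ± 0.25), the last for an outer dynein arm heavy chain, had adjusted p-values of 0.0251, 0.0706 and 0.0828 (DESeq2) and were called in 3, 2 and 1 of these fits. nme7.L was lost without neil2 MO replicate 1 or 2 or control MO replicate 1 (adjusted p = 0.121 to 0.255, DESeq2). rfx2.S was kept only without neil2 MO replicate 1 or control MO replicate 2, and dnah5.L only without control MO replicate 2, with adjusted p-values up to 0.459 and 0.385 in the other fits. edgeR without the block called 2 features of this list raised and 0 lowered, and over all features 71 raised and 70 lowered. At an unadjusted p below 0.05 (DESeq2), 9 were higher and 0 lower. With the block edgeR raised 8 and lowered 1, galnt11.L, whose log2 fold change in the main fit was -0.47 ± 0.26. That fit called far more features overall than edgeR without the block, with 1022 raised and 1288 lowered.

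The ciliogenesis regulator foxj1 did not pass the main test, with log2 fold changes of 0.50 ± 0.21 for foxj1.L (adjusted p = 0.309, DESeq2) and 0.51 ± 0.17 for foxj1.S (adjusted p = 0.114). foxj1.S was called raised with a minimum mean count of 10 and without neil2 MO replicate 3, and foxj1 with homeologs summed. The listed features foxj1.2.L (0.24 ± 0.28) and foxj1.2.S (0.18 ± 0.34) overlapped between the groups and were not called with or without the block. With the replicate block foxj1.L and foxj1.S were called raised, with adjusted p-values of 0.0531 and 0.00903 (DESeq2). The count raised in the cilia list was then 9 of 22, beside 3.14% of all features. Motile cilia genes are also expressed in the multiciliated cells of the epidermis, and whole embryos do not separate these from the organizer. The epidermal marker features tp63.L and tp63.S had log2 fold changes of 0.14 ± 0.20 and 0.17 ± 0.22, and the part of the epidermis in the cilia values was not tested.

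The midline, which acts as a barrier between the sides, showed no called feature. Of 15 tested midline features 0 were raised and 0 lowered in DESeq2 and in edgeR, and 0 had an unadjusted p below 0.05. The log2 fold change of shh.L was -0.16 ± 0.18 (adjusted p = 0.922, DESeq2) and that of shh.S was -0.41 ± 0.34. The median log2 fold change of the midline list was -0.16, with 12 tested features negative and 3 positive. shh.L, foxa2.L, nog.L and nog.S lay below control MO without overlap, and no tested midline feature lay above. Among all features tested, 10.3% lay below and 6.13% above. In the lateral plate and heart list 23 features were tested, 0 were raised and 1 was lowered, while edgeR without the block called 0 and 3 were lower at an unadjusted p below 0.05. With the block DESeq2 and edgeR each lowered foxf1.L and hand2.L, beside 2.74% and 5.25% of all features. In the main fit hand2.L had a log2 fold change of -1.11 ± 0.42 (adjusted p = 0.206, DESeq2). The other copy, hand2.S, had 0.00 ± 0.48 and its groups overlapped. The feature lowered in the main fit was foxf1.L, a forkhead gene of the lateral plate. It had 8.73 ± 0.464 CPM in neil2 MO and 14.4 ± 0.564 CPM in control MO (log2 fold change -0.67 ± 0.21, adjusted p = 0.0852, DESeq2). It was called in 0 of 6 fits that left out 1 library, where its log2 fold change was -0.73 to -0.62 and its adjusted p 0.107 to 0.352. The call was kept with TMM size factors, with a minimum mean count of 10 and, for foxf1, with homeologs summed. foxf1.S also lay below control MO without overlap, at 4.91 ± 0.785 CPM in neil2 MO and 6.92 ± 0.656 CPM in control MO. Its log2 fold change was -0.44 ± 0.27 (adjusted p = 0.68, DESeq2), and it was not called. The heart field gene nkx2-5 had log2 fold changes of -0.26 ± 0.26 (nkx2-5.L) and -0.05 ± 0.20 (nkx2-5.S), and hand1 matched no feature. The median log2 fold change of the lateral plate and heart list was -0.08, with 19 tested features negative and 4 positive. Besides both foxf1 copies, gata5.L, gata6.S, hand2.L, osr1.L and tbx5.L lay below control MO without overlap, and no tested feature lay above. gata6.S (-0.45 ± 0.18, adjusted p = 0.268, or 0.00528 with the block, DESeq2) missed the fold limit of the call.

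**Figure D4:**
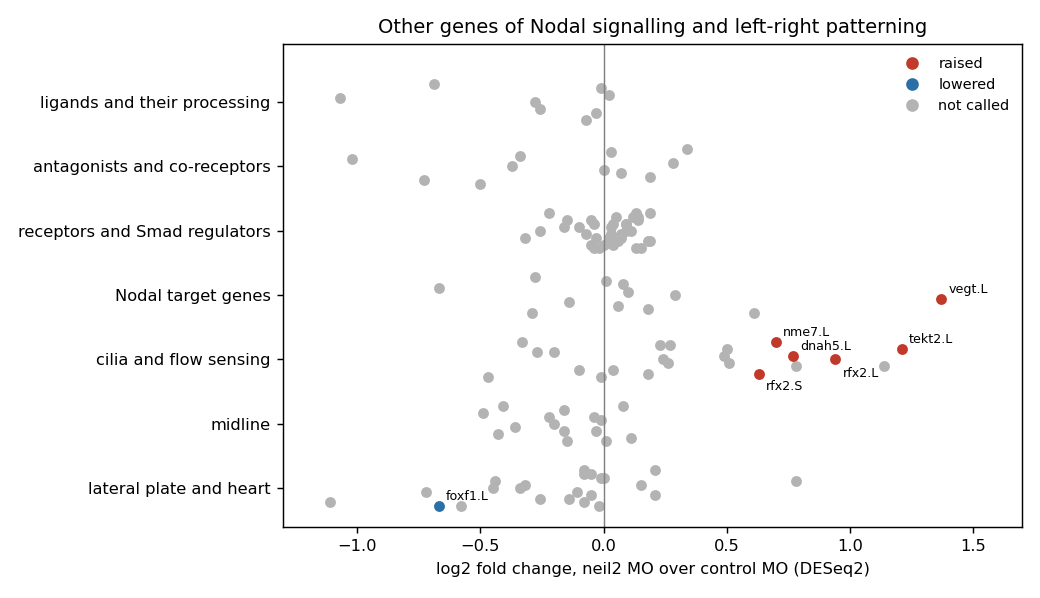
Log2 fold change of neil2 MO over control MO (horizontal axis, DESeq2) for each tested feature of 7 lists of other Nodal and left-right genes, 1 row per list, spread vertically for legibility. Features called raised (red, 6) and lowered (blue, 1) are named, and 120 features in grey were not called.

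Neighbouring genes were looked at next, as the 5 protein-coding genes on each side in the order given by RefSeq for a later assembly. Among the neighbours of nodal1.L, ash2l.L had a log2 fold change of -0.36 ± 0.18, lsm1.L of -0.63 ± 0.50 and bag4.L of 0.00 ± 0.28. Over the neighbours of nodal1 and lefty in both subgenomes 22 features were tested and 0 were called in DESeq2 or in edgeR without the block, while 1 was higher and 3 lower at an unadjusted p below 0.05. edgeR with the block called 1 raised, among the neighbours of nodal1.S, and 1 lowered, among those of lefty.S.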

How the data were processed

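RNA was collected from 3 neil2 MO and 3 control MO pools of 6 embryos. The deposited values are raw read counts per gene feature, which the authors made with STAR 2.5.4b (2 mismatches allowed) on X. laevis v9.2 and featureCounts 1.5.1 at default settings, without strand. Reads that mapped to several places were not counted, so near-identical homeologs and tandem copies are uncertain, and antisense transcripts cannot be told apart. Exon lengths were not used here, and levels of different features were not compared. RefSeq names (assembly 10.1) matched 16 of 17 members, and no coordinates are given because the builds differ.

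Counts were tested with DESeq2 1.42.0 (R 4.3.3), the tool of the study's methods, with group as the only term (Wald test, adjusted p below 0.1, absolute log2 fold change above 0.5). Replicate number was tested by a likelihood ratio test. Scripts were tested on simulated data. edgeR 4.0.16 (quasi-likelihood), TMM size factors, summed homeologs and fits with a minimum mean count of 10 or without independent filtering were alternatives. So were another threshold, a replicate block and leaving out each library. Likelihood ratio fits without each library and fits without both libraries of a replicate number were added after seeing the data. Same-numbered libraries, paired by the numbers in the titles, had correlated deviations from their group means (r = 0.59, 0.57 and 0.64 over 23779 features), although the labels do not state what a number shares. No 2 libraries agreed within sampling noise (smallest chi-square per degree of freedom 13.2).

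Named genes are all members, each called feature of the lists, genes fixed by name (cer1, tdgf1, gdf1, smad3, smad4, shh, foxj1, hand1 and nkx2-5), and the 5 features with a mean normalized count of at least 50 that were most like nodal1.L in log2(CPM + 0.5). The markers stand for muscle, neural tissue, epidermis and endoderm. Neighbours, inhbb, inhba, fst, hand2, galnt11.L, tekt2.S, foxf1.S and vegt.S were named after their values were seen. So were the midline and lateral plate features named for lying below control MO without overlap. Which markers are given with values was also decided then. The members and lists were chosen with earlier results of these data known. neil2.S was not analysed here, and 1 gene fixed by name is not reported here.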

Additional observations from a re-analysis of the deposited data

How the results depend on the processing

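The log2 fold change of nodal1.L was negative and called lowered in 17 of 17 alternatives (-2.17 to -1.86). These reuse the same libraries, and some change only a threshold or filter, which leaves the fold change as it was. Since nodal1.L was chosen with its difference known, they describe dependence on the processing and add no separate evidence. That of nodal1.S was negative in 17 (-1.71 to -1.34) and called in 1, that of lefty.L was -1.74 to -0.67 and called in 2, and that of lefty.S was -1.46 to -0.74 and called in 1. Against 275 raised and 262 lowered features, edgeR gave 71 and 70, the replicate block 693 and 604, and edgeR with the block 1022 and 1288. Fits without 1 library gave 142 to 311 raised and 118 to 274 lowered, and fits without both libraries of replicate 1, 2 or 3 gave 61, 110 and 175 raised, and 43 and 91 lowered for replicates 1 and 2. Members lowered were 2 with the replicate block (nodal1.L and lefty.L) and 4 in edgeR with the block, which adds nodal1.S and lefty.S and called 5.25% of all features lowered. Listed features raised, 6 at first, were 3 in edgeR, 10 with the block, 3 to 8 without 1 library, and 2 and 3 without both libraries of replicates 1 and 3. Listed features lowered, 1 at first, were 0 in edgeR, without independent filtering, at an adjusted p below 0.05 and without both libraries of any replicate, 0 to 1 without 1 library, 3 with the block (foxf1.L, hand2.L and fst.L) and 7 in edgeR with the block. The block changed no other call of a member. Members called by replicate number, 3 at first, were 6 in edgeR, beside 31.4% of all features, and 0 to 2 without 1 library. The causes were not tested. Few reads limit nodal1.S, lefty and dand5, and nodal.L, nodal.S and foxh1.S had at most 1 count.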

Other observations

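The activin branch of the pathway shares receptors with Nodal, and its genes were in the lists. inhbb, which encodes the activin B subunit, averaged 3.22 CPM in neil2 MO and 5.36 CPM in control MO as inhbb.L (log2 fold change -0.69 ± 0.33), and 1.33 CPM in neil2 MO and 2.86 CPM in control MO as inhbb.S (-1.07 ± 0.42). fst, which encodes the activin-binding protein follistatin, averaged 15.1 CPM in neil2 MO and 22.2 CPM in control MO as fst.L (-0.50 ± 0.21), and 0.777 CPM in neil2 MO and 1.64 CPM in control MO as fst.S (-1.02 ± 0.52). The groups did not overlap in any of these 4 features, a pattern also seen below control MO in 10.3% of all features tested. None passed the test without the block (adjusted p = 0.448, 0.25, 0.298 and 0.508 in this order, DESeq2). With the replicate block DESeq2 called fst.L lowered (adjusted p = 0.0513), beside 2.74% of all features. edgeR with the block called all 4 lowered, beside 5.25% of all features. inhbb and fst were named after their values were seen. inhba, in the same list as inhbb, had too few reads to be tested, with log2 fold changes of 0.27 ± 0.78 (inhba.L) and 0.42 ± 1.69 (inhba.S).

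The features whose log2(CPM + 0.5) across the 6 libraries was most like that of nodal1.L, among 16205 candidates, were wnt11.L (Pearson r = 0.997), gne.S (0.996), arsj.S (0.996), cct7.L (0.996) and dgki.L (0.995). wnt11.L, a Wnt ligand gene, averaged 6.55 ± 0.425 CPM in neil2 MO (SD, n = 3), with a log2 fold change of -0.87 ± 0.23 against control MO. dgki.L averaged 7.05 CPM in neil2 MO and 18.6 CPM in control MO. On normalized counts 3 of these 5 (wnt11.L, arsj.S and dgki.L) stayed among the first 5. The points share libraries and 2 groups far apart in nodal1.L, so the coefficients mostly restate the group difference and are a description only. Among members, nodal1.S had r = 0.97, lefty.L 0.72, lefty.S 0.74 and smad2.L -0.9 with nodal1.L. Values near those of lefty were also seen for acvr1b.S (0.83), acvr2b.S (0.8) and smad2.S (0.69). The other tested members lay between -0.08 (foxh1.L) and 0.2 (dand5.S).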
